A study of Mus musculus with 6 samples.

Results

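The sodium pump (Na,K-ATPase) beta subunit genes Atp1b1 and Atp1b3 and the FXYD regulator genes Fxyd1, Fxyd2, Fxyd3 and Fxyd5 were followed in kidneys of young mice with a targeted transferrin receptor. These 6 genes were chosen by symbol from the 24422 genes of the deposited tables. All 6 were counted in every library and passed the filter on low counts. The other beta subunit and FXYD genes, Atp1b2, Atp1b4, Fxyd4, Fxyd6 and Fxyd7 (5 genes), are described beside them where a comparison needs them.

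RNA was extracted from whole kidneys of C57BL/6 mice at postnatal day 13, from animals on an iron sufficient diet with 220 ppm iron. There were 3 Control kidneys, labelled wild type, and 3 TfR1KO kidneys, labelled Tfr1f/f;SixCre, in which Six2Cre (expressed with EGFP) deletes the floxed exons 3 and 4 of the transferrin receptor gene Tfrc (TfR1). Elsewhere the study calls TfR1f/f littermates wild type, so whether these Control kidneys carried floxed alleles is not given in the labels. Six2Cre is active in the progenitors of the nephron, so the collecting duct, vessels, stroma and leukocytes lie outside its target, and the study reports TfR1+ cells that escaped deletion.

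The Na,K-ATPase sits in the basolateral membrane of kidney tubule cells and drives sodium reabsorption along the nephron. Its alpha subunit binds and splits ATP, its beta subunit is needed for the alpha subunit to fold and reach the membrane, and small single-pass FXYD proteins adjust the affinity and turnover of the assembled pump. Different tubule segments carry different FXYD proteins: Fxyd2 encodes the gamma subunit of the proximal tubule, thick ascending limb and distal convoluted tubule, and Fxyd4 encodes CHIF, a FXYD protein of the collecting duct.

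The FXYD family is named for a short extracellular motif next to the membrane. It is shown here because it is what puts the 4 FXYD members and Fxyd4 into 1 family. The coding strand is printed 5′ to 3′ from 1 GENCODE transcript per gene (mm9), with the 15 bases that encode the motif in capitals and 9 bases on each side.
Fxyd1: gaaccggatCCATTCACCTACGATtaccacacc
Fxyd2: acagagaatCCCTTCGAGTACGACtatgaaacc
Fxyd3: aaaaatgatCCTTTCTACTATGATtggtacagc
Fxyd5: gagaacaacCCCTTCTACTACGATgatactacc
Fxyd4: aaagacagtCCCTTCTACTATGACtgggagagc
Outside this motif the genes are distinct enough to be counted apart. The longest identical run between a transcript of a member and one of another beta subunit or FXYD gene was 19 bases over 45 pairs, shorter than the shortest read kept (30 bases, from reads of 100 bases).

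Fxyd5 (chromosome 7, 31817741 to 31827500), Fxyd1 (31836700 to 31840675) and Fxyd3 (31853191 to 31861723) lie on the minus strand of 1 stretch of 43983 bases that also holds Fxyd7. Fxyd2 (45207957 to 45218361) lies on the plus strand of chromosome 9, 3715 bases from Fxyd6. Atp1b1 (chromosome 1, 166367398 to 166388486) and Atp1b3 (chromosome 9, 96233099 to 96264766) stand apart from the FXYD genes. All are protein-coding, the positions are those of mm9, and values are counts over a gene's exons. Fxyd3 shares 2059 exon bases with Lgi4 on the opposite strand, and the strand setting of the counting was not given in the sources used here.

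Total counts ran from 16591156 to 22898008 per library. At an adjusted p under 0.05, 1277 genes were higher and 1186 lower in TfR1KO kidneys of 16509 tested (DESeq2 Wald test), and 728 and 736 of these changed by at least 2-fold. edgeR's quasi-likelihood test called 921 of 15308. Tfrc did not pass the test (log2 fold change 0.11, SE 0.29, DESeq2 adjusted p = 0.853, 3 libraries per group), but most of its exons lie outside the deletion, so its counts do not check the labels. Control replicate 3 stood apart from the other Control libraries in several markers given below, and the members and marker sums it moved most are given with and without it. Control replicates 1 and 2 were the closest pair of libraries (chi-square of their counts per degree of freedom 10.6). The next closest, TfR1KO replicates 1 and 3, were at 37.85. Fits without Control replicate 3 thus take their Control spread from 2 closely alike libraries. The study describes the controls of its sequenced models as wild type littermates, but which kidneys shared a litter is not given. All p-values measure the spread between these 6 libraries only. In whole tissue, fewer cells of a type and less RNA per cell cannot be told apart.

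None of the 6 members changed at an adjusted p under 0.05 by DESeq2, edgeR or limma-voom, where 14.9% of all genes tested were called by DESeq2, 6.02% by edgeR and 6.15% by limma-voom. Thus 0 members were called higher and 0 lower, where DESeq2 called 7.74% of all genes higher and 7.18% lower, or 4.41% and 4.46% when a change of at least 2-fold was also asked for. At an unadjusted p under 0.05 the member counts were 1 (Fxyd2) by DESeq2, 0 by edgeR and 1 (Fxyd2) by limma-voom, where DESeq2 gave 27.3% of all genes. The fitted fold changes of Atp1b1, Fxyd3 and Fxyd5 were above 1 and those of Atp1b3, Fxyd1 and Fxyd2 below it. The values of Fxyd2 and Fxyd3 did not overlap between the groups, which held for 2 of 6 members and for 33.7% of all genes tested.

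**Figure D1:**
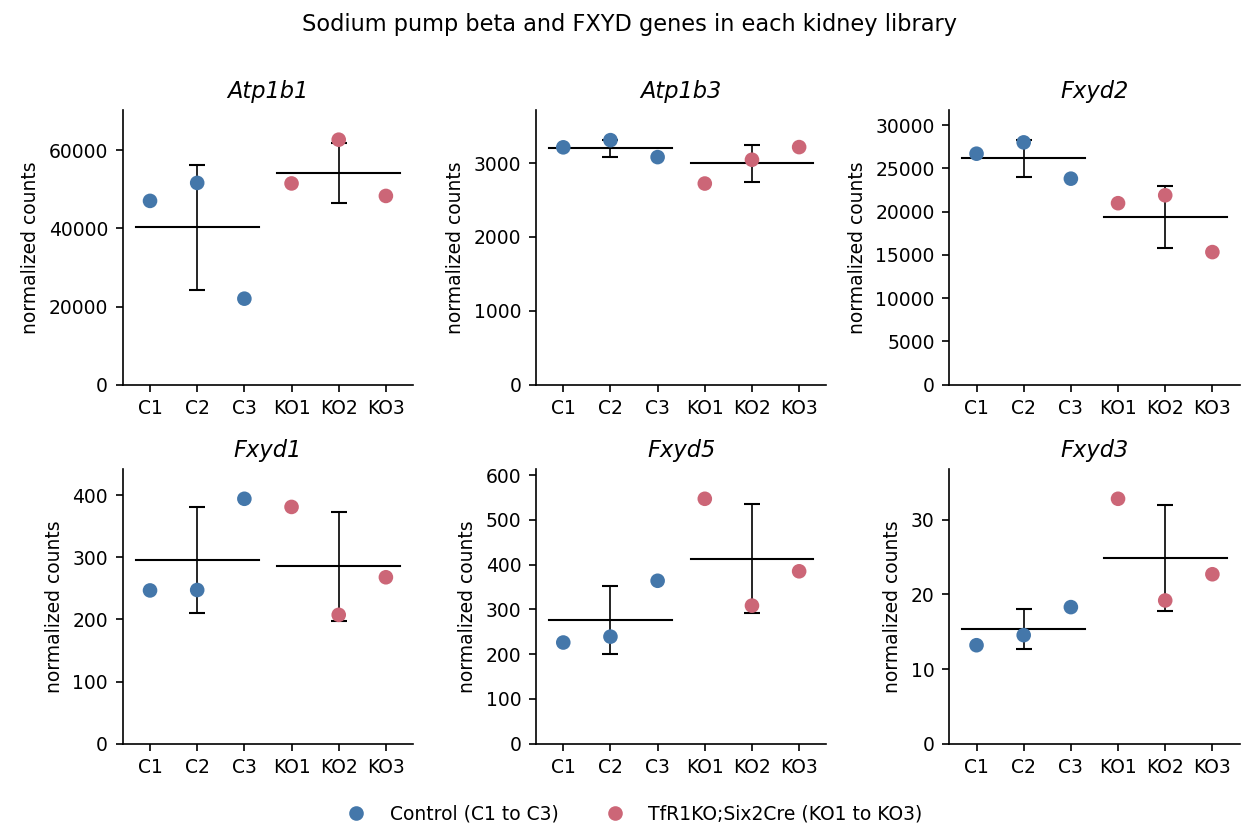
Normalized counts (linear axis from 0) of each member in Control libraries (C1 to C3, blue) and TfR1KO libraries (KO1 to KO3, red), with the group mean as a horizontal line and the SD (n = 3) as a vertical bar. Fxyd2 lies lower and Fxyd3 higher in every TfR1KO library, and Control replicate 3 is the low point of Atp1b1 at 22012.

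Atp1b1, the main beta subunit of kidney tubule cells, was at 47067, 51675 and 22012 normalized counts in Control replicates 1 to 3. In TfR1KO replicates 1 to 3 it was at 51537, 62749.6 and 48337 normalized counts. The TfR1KO libraries lay close to or above the 2 higher Control libraries, and the groups overlapped. The fold change was 1.35 (95% interval 0.867 to 2.09, log2 0.43, SE 0.32) and did not pass (DESeq2 adjusted p = 0.408, edgeR adjusted p = 0.475).

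Most of the Control spread in Atp1b1 came from Control replicate 3. Without that library the log2 fold change was 0.13 (DESeq2 adjusted p = 0.705), against 0.64 without Control replicate 2. The same library had a proximal tubule marker sum of 55217 normalized counts, where Control replicates 1 and 2 had 116017 and 115869. Its stroma and smooth muscle sum was 57122, against 29497 and 29453. The part of these differences in the Atp1b1 value was not tested.

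Atp1b3, the beta-3 subunit, which is found in many tissues, was the steadiest member. Control replicates 1 to 3 had 3213, 3310.3 and 3081 normalized counts, and TfR1KO replicates 1 to 3 had 2723, 3045 and 3216. The groups overlapped, with the lowest value in TfR1KO replicate 1. The fold change was 0.935 (95% interval 0.771 to 1.13, log2 -0.10, SE 0.14, DESeq2 adjusted p = 0.713), the narrowest interval of the members, and it leaves out a change of 1.5-fold in either direction.

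Of all counts given to the 4 beta genes, Atp1b1 held 92.2%, 92.7% and 85.0% in Control and 93.7%, 94.5% and 91.4% in TfR1KO libraries. Atp1b3 held 6.29%, 5.94% and 11.9% in Control and 4.95%, 4.59% and 6.08% in TfR1KO libraries, not corrected for length. Control replicate 3 was the library with the least Atp1b1 and the most Atp1b3 in its beta counts. The log2 ratio of Atp1b3 to Atp1b1 within a library was -3.56 ± 0.63 in Control and -4.17 ± 0.24 in TfR1KO (mean ± SD, n = 3). The difference of -0.61 did not pass an exact two-sided permutation test (p = 0.2, also 0.2 adjusted over 4 ratios, where 3 against 3 cannot go below 0.1), and it was -0.25 without Control replicate 3.

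Fxyd2 held most of the FXYD counts and was the only member with an unadjusted p under 0.05. It was at 26684, 27992 and 23798 normalized counts in Control replicates 1 to 3. In TfR1KO replicates 1 to 3 it was at 20963, 21876 and 15311 normalized counts. Every TfR1KO library was below every Control library, as for 16.9% of all genes tested, and TfR1KO replicate 3 was the lowest.

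The Fxyd2 fold change was 0.741 (95% interval 0.567 to 0.969, log2 -0.43, SE 0.20). The unadjusted p was 0.0285 and the DESeq2 adjusted p = 0.127 (edgeR adjusted p = 0.229). Leaving out 1 library moved the log2 fold change between -0.52 and -0.28, and the value of -0.28 came without TfR1KO replicate 3. With libraries scaled by their total counts it passed (log2 -0.55, DESeq2 adjusted p = 0.0118), a scaling that moves the median of all genes to -0.10.

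**Figure D2:**
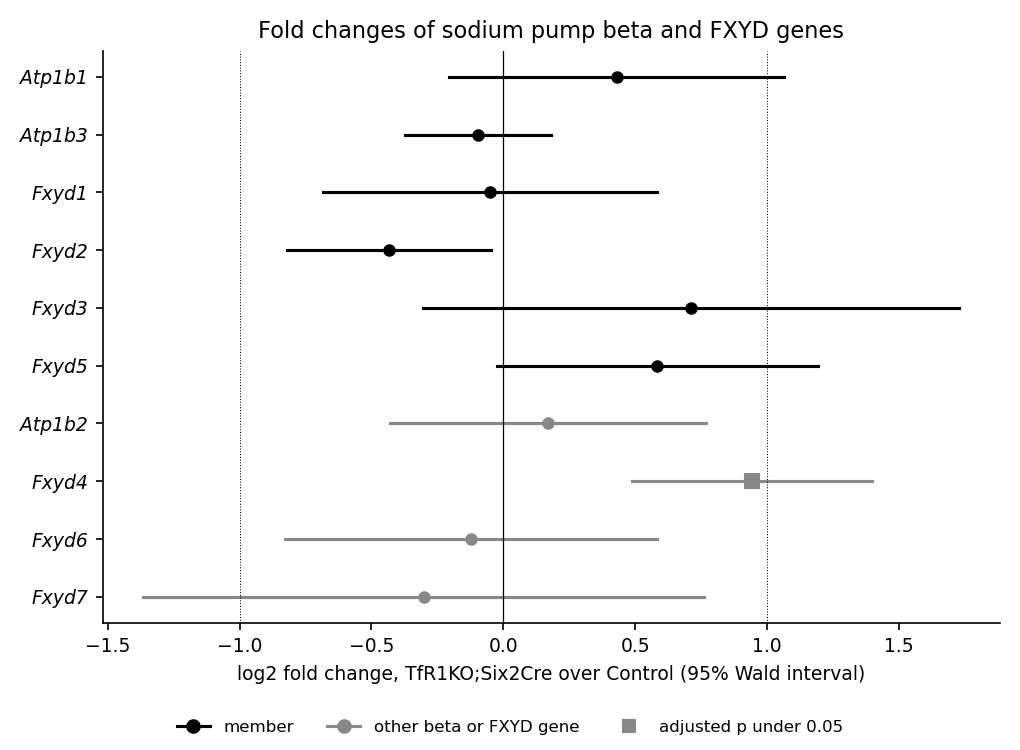
Log2 fold change (TfR1KO over Control, DESeq2, n = 3 per group) of the beta subunit and FXYD genes tested, with 95% Wald intervals as bars. Members are black, other beta subunit and FXYD genes grey, dotted lines mark 2-fold, and the square marks Fxyd4, the gene with an adjusted p under 0.05, while the intervals of 5 members include 0 and that of Fxyd2 ends at -0.05.

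Markers of the segments in which the gamma subunit is known were read beside it. Marker genes beyond the most abundant of a list are named here and below because they passed, after their values were seen. Of the thick ascending limb markers 5 of 6 fell and none rose (Umod, Slc12a1, Kcnj1, Cldn10 and Cldn16, of which edgeR called 4), and their summed normalized counts ran from 49129.5 to 97640.2 in Control and from 14132 to 26284 in TfR1KO libraries. Of the distal convoluted tubule markers 4 of 5 fell and none rose (Slc12a3, Trpm6, Klhl3 and Pvalb, all 4 also by edgeR), with sums from 14703 to 29163 in Control and from 6014 to 7631 in TfR1KO libraries. Of the proximal tubule markers 3 of 8 fell (Lrp2, Aqp1 and Slc5a2) and 1 rose (Slc22a6), with edgeR at 1 and 1 and with sums from 55217 to 116017 and from 54871 to 75457. Control replicate 3 was the lowest Control library in all 3 lists, and without it the Control sums started at 89083, 25672 and 115869, so the proximal tubule sums no longer overlapped. Their part in the Fxyd2 value was not tested, and Fxyd2 was at log2 -0.50 without Control replicate 3 (DESeq2 adjusted p = 0.107).

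Fxyd4, which is no member, is the FXYD gene that passed the test. It was at 1199, 1121 and 1030.1 normalized counts in Control and at 2697, 2131 and 1617 in TfR1KO replicates 1 to 3. Every TfR1KO library was above every Control library. Fxyd4 rose 1.92-fold (95% interval 1.4 to 2.64, log2 0.94, SE 0.23, DESeq2 adjusted p = 0.000944, edgeR adjusted p = 0.0387), and it passed without each of the 6 libraries in turn. Of the principal cell markers of the collecting duct, 3 of 7 rose and none fell (Aqp2, Aqp3 and Scnn1b, 1 of them by edgeR), with sums from 10027 to 19967 in Control and from 35873 to 64388 in TfR1KO libraries. Aqp2 made up a larger part of these sums in TfR1KO than in Control libraries, and the rise of the sums was mostly its own. Aqp2 was at 5747, 5581 and 2409 normalized counts in Control and at 17805, 50719 and 23564 in TfR1KO replicates 1 to 3. Hsd11b2, also among the 3 most abundant of the list, overlapped between the groups and did not pass. Without Control replicate 3, the lowest, the Control sums were 19951 and 19967, and Fxyd4 was at log2 0.89 (DESeq2 adjusted p = 0.00804). The part of the principal cell markers in the Fxyd4 value was not tested.

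In each library Fxyd2 and Fxyd4 held the largest shares of the FXYD counts, not corrected for length. Fxyd6 came close to Fxyd4 in Control replicate 3, at 799 against 957 raw counts. Fxyd2 held 91.9%, 93.1% and 89.8% of the counts of the 7 FXYD genes in Control and 83.4%, 87.5% and 82.8% in TfR1KO libraries. Fxyd4 held 4.13%, 3.73% and 3.89% in Control and 10.7%, 8.53% and 8.74% in TfR1KO libraries. Neither share overlapped between the groups, while that of Fxyd5, at 0.778% to 1.37% in Control and 1.23% to 2.18% in TfR1KO, did.

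Ratios within a library do not depend on how libraries are scaled. The log2 ratio of Fxyd4 to Fxyd2 was -4.55 ± 0.08 in Control and -3.19 ± 0.21 in TfR1KO (mean ± SD, n = 3), a difference of 1.36 with no overlap. This ratio was picked after its values were seen, and its exact two-sided permutation p = 0.1 is the smallest that 3 against 3 can give (0.2 adjusted over 4 ratios). It stayed between 1.25 and 1.45 without each library in turn.

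Fxyd5 encodes dysadherin, a FXYD protein of epithelia and leukocytes that is also known to lower cell adhesion. It was at 226, 239 and 364 normalized counts in Control and at 547, 308 and 385 in TfR1KO replicates 1 to 3. TfR1KO replicate 2 lay below Control replicate 3, so the groups overlapped. The fold change was 1.5 (95% interval 0.983 to 2.29, log2 0.58, SE 0.31) and did not pass (DESeq2 adjusted p = 0.205, edgeR adjusted p = 0.252).

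The log2 fold change of Fxyd5 was 0.83 without Control replicate 3, with a DESeq2 adjusted p = 0.0509 where 14.3% of genes passed, and 0.33 without TfR1KO replicate 1. No library left out took it past the threshold. Of the macrophage markers 4 of 7 rose and none fell (Lyz2, C1qa, C1qb and Cd68, 3 of them by edgeR), with sums from 2379.6 to 3750.2 in Control, the highest in Control replicate 3, and from 5352 to 7968 in TfR1KO libraries, the highest in TfR1KO replicate 1. Of the tubule injury markers 5 of 6 rose (Spp1, Clu, Lcn2, Krt20 and Havcr1, 4 of them by edgeR). Their sums ran from 31918 to 39476 in Control, the lowest in Control replicate 3. In TfR1KO libraries they ran from 92847 to 153414, the highest in TfR1KO replicate 1. Fxyd5 itself was highest in Control replicate 3 and TfR1KO replicate 1, and the part of either list in its value was not tested.

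The log2 ratio of Fxyd5 to Fxyd2 was -6.60 ± 0.49 in Control and -5.57 ± 0.50 in TfR1KO (mean ± SD, n = 3). The difference of 1.02 did not pass the exact two-sided permutation test (p = 0.2), since Control replicate 3 (-6.03) lay above TfR1KO replicate 2 (-6.15). It ran from 0.86 to 1.31 without each library in turn.

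**Figure D3:**
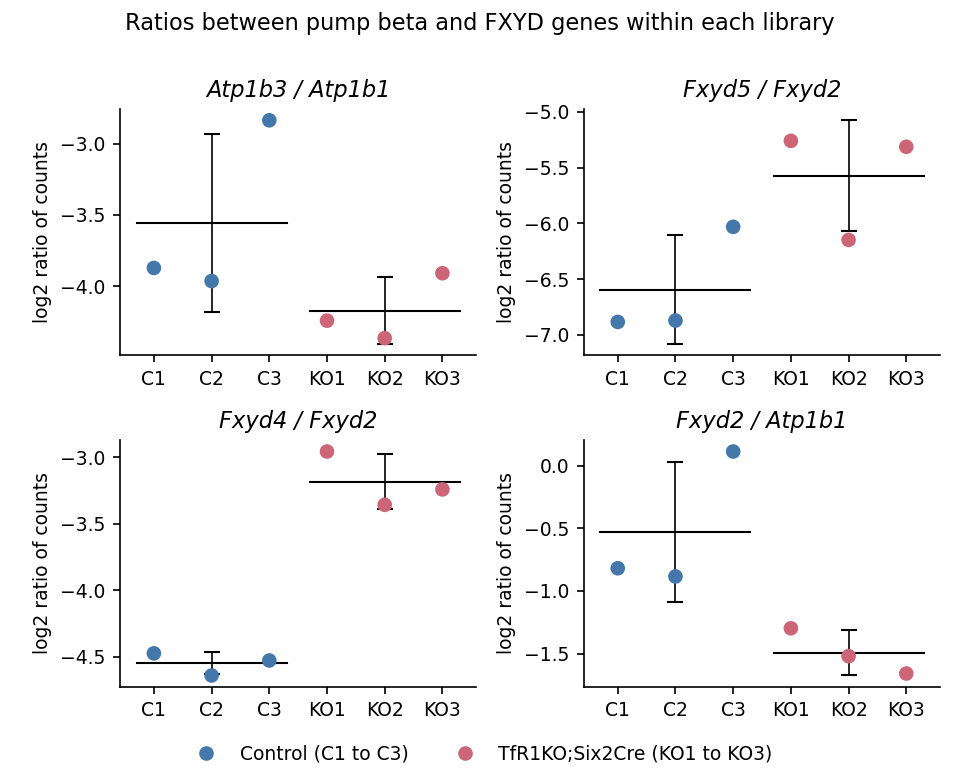
Log2 ratio of the counts of a pair of genes within each library, in Control (blue) and TfR1KO (red), with group means as horizontal lines and SD (n = 3) as bars; the axes do not start at 0 and differ between panels. The ratio of Fxyd4 to Fxyd2 separates the groups by 1.36, while Atp1b3 to Atp1b1 and Fxyd5 to Fxyd2 overlap.

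Fxyd3, known as Mat-8 and first found in breast tumours, was near the floor of detection in these kidneys. Its raw counts were 16, 16 and 17 in Control and 33, 15 and 24 in TfR1KO replicates 1 to 3. Scaled for depth these were 13.2, 14.5 and 18.3 against 32.8, 19.2 and 22.7 normalized counts. Every TfR1KO library was higher after scaling, as for 16.9% of all genes tested, although TfR1KO replicate 2 had the fewest raw counts.

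The Fxyd3 fold change was 1.64 (95% interval 0.81 to 3.31, log2 0.71, SE 0.52, DESeq2 adjusted p = 0.388), the widest interval of the members. Counting error alone gives 95% Poisson limits of 22.7 to 46.3 for the count of 33 and of 9.9 to 27.2 for the count of 17. Without Control replicate 3 the log2 fold change was 0.85 (DESeq2 adjusted p = 0.416). Lgi4, which overlaps Fxyd3 on the other strand, had 24.5 to 39.8 normalized counts in Control and 20.5 to 53.7 in TfR1KO libraries (DESeq2 adjusted p = 0.933), and reads of the pair cannot be told apart if strand was not used. Of the urothelium markers 1 of 6 rose (Upk3a, DESeq2 adjusted p = 0.0463, 0 by edgeR), with sums from 1184 to 1789 in Control and from 1714 to 2137 in TfR1KO libraries.

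Fxyd1 encodes phospholemman, the FXYD protein of heart and muscle whose phosphorylation relieves its inhibition of the pump. It was at 247, 247 and 394 normalized counts in Control and at 381, 207 and 268 in TfR1KO replicates 1 to 3. Each group held 1 library well above its other 2, and the groups overlapped. The fold change was 0.966 (95% interval 0.623 to 1.5, log2 -0.05, SE 0.32, DESeq2 adjusted p = 0.945), an interval that still holds changes of nearly 1.5-fold either way.

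The direction of the Fxyd1 value was not fixed by these libraries. It was 0.21 without Control replicate 3 and 0.14 without TfR1KO replicate 2, and -0.31 without TfR1KO replicate 1. Control replicate 3 and TfR1KO replicate 1 also had the highest stroma and smooth muscle sums of their groups, at 57122 and 35323, where the other libraries had 24094 to 34225. Col1a1, the most abundant of these markers, was at 17835, 5367 and 11929.5 normalized counts in TfR1KO replicates 1 to 3. Acta2 and Dcn, the next most abundant, were instead highest in TfR1KO replicate 3. None of the 7 stroma and smooth muscle markers passed the test, and their part in the Fxyd1 value was not tested. The 95% intervals of Dcn (log2 -1.53 to 0.17) and Col1a1 (log2 -1.29 to 0.32) still hold a 2-fold fall. Skeletal muscle markers were close to 0, with sums of at most 77.5 in Control and 119 in TfR1KO libraries.

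**Figure D4:**
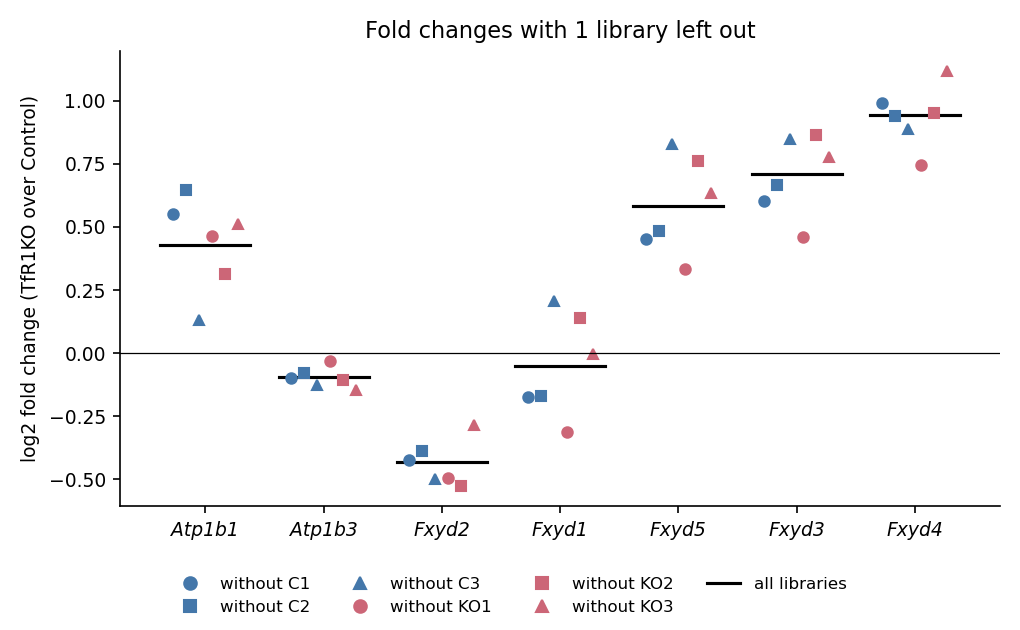
Log2 fold change (TfR1KO over Control, DESeq2) of each member and Fxyd4 with all 6 libraries (black lines) and with 1 library left out (points, blue for a Control and red for a TfR1KO library left out). Fxyd1 crosses 0 when Control replicate 3 or TfR1KO replicate 2 is left out, the other genes keep their side, and Atp1b1 is at 0.13 without Control replicate 3.

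The 2 most abundant members were also set against each other. The log2 ratio of Fxyd2 to Atp1b1 was -0.82, -0.88 and 0.11 in Control and -1.30, -1.52 and -1.66 in TfR1KO replicates 1 to 3. Every TfR1KO library was below every Control library, and Control replicate 3 was the highest. The means were -0.53 ± 0.56 and -1.49 ± 0.18 (mean ± SD, n = 3 each), a difference of -0.96. This ratio too was picked after its values were seen, and it reached the smallest exact two-sided permutation p of 0.1 (0.2 adjusted over 4 ratios). It was -0.64 without Control replicate 3 and between that and -1.14 without the others.

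Of the other 5 beta subunit and FXYD genes, 4 could be tested, and 1 (Fxyd4) rose and none fell, with a median log2 fold change of 0.02 against 0.01 over all genes tested. Atp1b2, the beta-2 subunit best known from glia, had 784 ± 19.8 normalized counts in Control and 881 ± 372 in TfR1KO libraries (mean ± SD, n = 3). Fxyd6 had 647 ± 217 and 594 ± 238, and Fxyd7 had 25.0 ± 8.27 and 20.1 ± 7.58. These 3 overlapped between the groups and did not pass. Atp1b4 was too low to test.

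Levels were compared between genes per length, in RPKM, which are counts scaled by the median protein-coding transcript length and by the total counts of the library. In Control kidneys the members ran from Fxyd2 (2213 ± 95.5) through Atp1b1 (881 ± 325), Atp1b3 (115 ± 0.777), Fxyd1 (26.5 ± 8.74) and Fxyd5 (18.4 ± 5.84) to Fxyd3 (1.88 ± 0.40) (mean ± SD, n = 3). Fxyd1 (21.2 to 36.6) and Fxyd5 (14.8 to 25.1) overlapped, and the other neighbours in this order did not. In TfR1KO kidneys Fxyd5 (25.7 ± 9.03) and Fxyd1 (23.9 ± 8.72) also overlapped, with the order of their means turned. That turn depends on the length used, since with merged exons Fxyd5 was at 4.98 and Fxyd1 at 20.3 in TfR1KO kidneys.

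Fxyd2 stayed the highest member in both groups, at 1281 to 1722 RPKM in TfR1KO libraries, where Atp1b1 was at 1055 to 1158. With the merged exons of all transcripts as the length, the Fxyd2 mean was 1385 against 881 for Atp1b1 in Control and 949 against 1106 in TfR1KO, so in TfR1KO kidneys the order of these means depends on the length used. The transcripts of Fxyd5 run from 375 to 2998 bases and those of Fxyd3 from 342 to 2894, so their levels depend most on that choice.

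**Figure D5:**
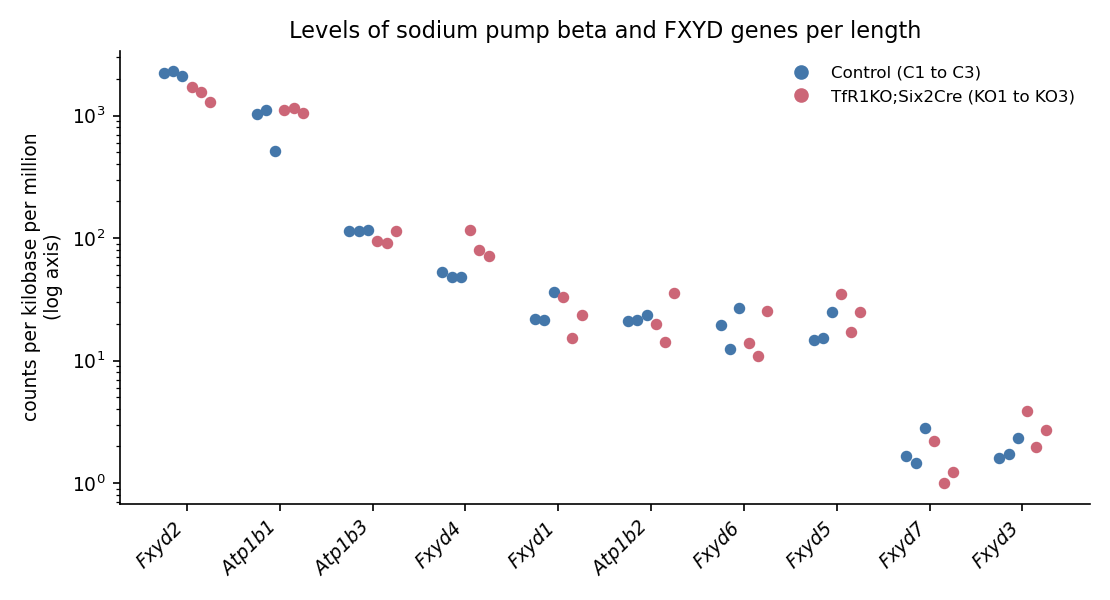
Level of the beta subunit and FXYD genes (RPKM over the median coding transcript, log axis) in Control (blue) and TfR1KO (red) libraries, ordered by Control mean. Points are single libraries, and Fxyd2 and Fxyd3 mark the ends of the order at Control means of 2213 and 1.88.

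Sodium that leaves a cell through the pump enters it at the apical side. Of 10 apical sodium entry genes 4 fell and 1 rose by DESeq2 (3 and 0 by edgeR), with a median log2 fold change of -0.70 against 0.01 over all genes tested. The 3 most abundant were Slc34a1, the proximal phosphate transporter (36675 to 20582 normalized counts from Control to TfR1KO means, DESeq2 adjusted p = 0.131), Slc12a1, the NKCC2 transporter of the thick ascending limb (30001 to 13108, DESeq2 adjusted p = 0.00617, edgeR adjusted p = 0.0854), and Slc12a3, the thiazide-sensitive transporter (17080 to 1081, log2 -3.98, DESeq2 adjusted p = 1.19e-22). Slc5a2, Slc34a3 and Scnn1b, named after their values were seen, are the other genes that passed. Scnn1b, the beta subunit of the epithelial sodium channel, rose 1.57-fold (DESeq2 adjusted p = 0.0301, edgeR adjusted p = 0.0945). The summed list was at 117045, 120397 and 56499 in Control replicates 1 to 3 and ran from 41095 to 52907 in TfR1KO libraries, without overlap. The summed members ran from 49667 to 83479 in Control and from 67539.5 to 88206 in TfR1KO libraries, with overlap. That member sum, not corrected for length, was mostly Atp1b1 and Fxyd2. Their fitted log2 fold changes were opposite, at 0.43 and -0.43, so the sum does not stand for the pump as a whole.

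Potassium that the pump brings in, and chloride, leave the cell through basolateral channels. Of 8 such genes 2 fell and none rose (1 and 0 by edgeR), with a median log2 fold change of 0.03. Both were picked out after their values were seen. Kcnj10, the potassium channel subunit of the distal convoluted tubule, had 2333 ± 1006 and 926 ± 119 normalized counts (DESeq2 adjusted p = 0.00213, edgeR adjusted p = 0.0566). Bsnd, the chloride channel subunit barttin, had 2909 ± 673 and 1384 ± 278 (DESeq2 adjusted p = 0.000675, edgeR adjusted p = 0.0379).

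Of 6 genes of hormone and kinase control of sodium transport, 1 rose and 1 fell (0 and 1 by edgeR). Sgk1, the aldosterone-induced kinase, rose 1.69-fold from 7942 ± 1259 to 13396 ± 4003 normalized counts (DESeq2 adjusted p = 0.0312, edgeR adjusted p = 0.117). Sgk1 passed in only 1 of the 6 DESeq2 fits with 1 library left out. Ppp1r1a, an inhibitor of protein phosphatase 1 and named after its values were seen, fell from 3378 ± 1075 to 918 ± 203 (DESeq2 adjusted p = 3.37e-08, edgeR adjusted p = 0.0131). The mineralocorticoid receptor partner Hsd11b2 (DESeq2 adjusted p = 0.732) did not pass.

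The H,K-ATPase genes are the closest relatives of the pump. Of 7 H,K-ATPase and pump-interacting genes 5 could be tested, and 2 fell. Atp12a, the colonic H,K-ATPase alpha subunit, was at 591, 625 and 763 normalized counts in Control and at 356, 139 and 206 in TfR1KO libraries (log2 -1.49, SE 0.35, DESeq2 adjusted p = 0.000433, edgeR adjusted p = 0.045). Atp4a, the gastric alpha subunit, was at 436, 474 and 227 in Control and at 189.9, 107 and 161 in TfR1KO libraries (DESeq2 adjusted p = 0.00378, edgeR adjusted p = 0.0641). Neither overlapped between the groups.

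The genes whose pattern over the 6 libraries was most like each member were listed as a description, by Pearson r of log2 normalized counts plus 1 among 12109 genes with a mean of at least 100. The 6 points share their group difference and scaling, so no p is given. They were Ggt6 (r = 0.996), Acp6 and Wdr72 for Atp1b1, and 1700028J19Rik (r = 0.983), Rbmx and Rdh14 for Atp1b3. For Fxyd2 they were Anapc13 (r = 0.987), Sec22b and Klk1, the tissue kallikrein. Of these Anapc13 (log2 -0.64, DESeq2 adjusted p = 0.0274) and Klk1 (log2 -1.27, DESeq2 adjusted p = 0.00147) fell. For Fxyd1 they were Cygb (r = 0.995), Unc5b and Pigu. For Fxyd3 they were Tor4a (r = 0.997), Pdlim3 and the epithelial calcium channel Trpv6, which rose (log2 1.90, DESeq2 adjusted p = 0.000818). For Fxyd5 they were Pld4 (r = 0.990), Timp1, an inhibitor of matrix metalloproteinases, and Unc93b1.

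The remaining marker lists describe what else the kidneys held. Of 6 intercalated cell markers 1 rose (Atp6v0d2) and 3 fell (Slc4a9, Slc26a4 and Slc4a1), against 0 and 3 by edgeR. Of 5 podocyte markers 1 rose (Wt1, also by edgeR). None of 5 endothelium markers passed the test. Endothelium sums were 11553 to 19775 in Control, the highest in Control replicate 3, and 12811 to 15577 in TfR1KO libraries. Of the 6 red cell genes 4 globin genes were listed at 0 in every library, and of the other 2 Alas2 did not pass and Slc4a1, which intercalated cells also express, fell. Of 5 skeletal muscle genes 3 could be tested and none passed. No other marker was listed at 0 in every library.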

How the data were processed

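Raw counts per gene were deposited by the authors for 6 kidney libraries (3 Control, 3 TfR1KO). Per the study's methods and processing notes, reads were single-end and of 100 bases, were trimmed with Trimmomatic, aligned to mm9 with TopHat2 2.0.11 and counted with HTSeq from uniquely mapped reads, with no normalization. Unique counting lowers genes with near-identical copies. Counts were tested here in R 4.3.3 with DESeq2 1.42.0 (Wald test, median-ratio size factors, no covariate, Benjamini-Hochberg adjustment over 16509 genes, threshold 0.05, lowest mean count tested 3.51), with edgeR 4.0.16 and limma 3.58.1 beside it. Normalized counts are counts divided by DESeq2 size factors. Within-library ratios were compared by exact permutation tests (scipy 1.17.1). Lengths and positions came from GENCODE vM1 on the same build.

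Named genes were the members, the other beta subunit and FXYD genes, Tfrc, the 3 genes most like each member, and up to 3 most abundant genes per list. Some other pump genes are not reported here. Members and lists were chosen with earlier results of these data known. Groups and replicate numbers came from the labels. In counts simulated for TfR1KO against Control with 200 of 19985 genes changed, DESeq2 recovered 72.5% with 24.5% of its calls false, edgeR 57.5% with 5.0% false and limma-voom 55.0% with 5.2% false. Alternatives were other tests, scalings, filters, a replicate block and leaving out each library.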

Additional observations from a re-analysis of the deposited data

How the results depend on the processing

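Counts of changed genes depended on the tool and on single libraries, while the members' calls depended on neither and moved only with 1 scaling. Against 2463 genes by DESeq2 (728 higher and 736 lower by at least 2-fold), edgeR called 921 (380 and 353) and limma-voom 941 (365 and 372). Leaving out 1 library gave 1239 to 3205 genes, with 537 to 821 higher and 498 to 1146 lower by at least 2-fold. It gave 1239 without Control replicate 1, 1332 without Control replicate 2, 1512 without TfR1KO replicate 3, and 1146 lower genes without TfR1KO replicate 1. Of 90 alternative values of the members' log2 fold changes, 87 kept their direction and side of the threshold. Fxyd1 reversed to 0.21 without Control replicate 3 and to 0.14 without TfR1KO replicate 2 (range -0.31 to 0.21), and Fxyd2 passed at -0.55 with total-count scaling, the 1 setting with a member called (1 lower). The cause was not tested. With merged exons as the length, chosen after seeing the data, Control levels became 91.5 for Atp1b3, 1385 for Fxyd2, 0.173 for Fxyd3 and 3.56 for Fxyd5. Same-numbered libraries did not deviate together (r = -0.04, 0.05 and 0.09 across 15303 genes), so the numbers were not taken as pairs. With the replicate block 2172 genes passed and 0 members. Fxyd3 and Fxyd7 had 12 to 33 counts per library, and whether depth or the spread between libraries limits them was not tested.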
